A study of Mus musculus with 15 samples.

Results

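The platelet and megakaryocyte genes described here are the 10 genes Pf4, Ppbp, Itga2b, Itgb3, Gp1ba, Gp1bb, Gp5, Gp6, Gp9 and Treml1, taken by symbol from the 55416 genes of the count tables. Of these, 9 had counts and Gp1bb had none in any library. The libraries were made from whole blood of C57BL/6 mice, which the labels describe as carrying tumors in the tongue grown from 4MOSC1 cells, an oral squamous carcinoma line of the mouse. The 3 groups of 5 mice were untreated mice with no surgery, mice given αCTLA-4 (an antibody against the immune checkpoint CTLA-4) and an early neck dissection (early ND), and mice given αCTLA-4 and a late neck dissection (late ND). A neck dissection removes the lymph nodes that drain the tumor, and the study asked how its timing relative to the antibody is reflected in the blood. The study's accounts of the timing differ, as blood sampling is placed ahead of the late operation in one passage and after it in another, so "late ND" names the group here, whichever holds. The study's description of the blood experiment covers the early and late ND groups, and the labels alone describe the untreated mice. Blood was taken from the cheek, and the authors removed clots, which hold platelets, before the RNA was isolated. The labels describe 1 blood sample per animal, so the libraries are taken as separate mice. The labels also give 10 days of tumor growth for every sample, and the same number of αCTLA-4 doses for early and late ND mice.

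Platelets are anucleate fragments shed by megakaryocytes of the bone marrow, and the RNA that they carry into the circulation was made before they were shed. On their surface, the glycoprotein Ib-IX-V complex binds von Willebrand factor, glycoprotein VI binds collagen and the integrin αIIbβ3 binds fibrinogen, while their alpha granules store chemokines and adhesive proteins for release. Transcription factors of the GATA and ETS families are known to drive many of these genes in megakaryocytes. In whole blood RNA, fewer platelets and less RNA per platelet cannot be told apart.

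To show the DNA next to which these genes start, the 250 bases upstream of the start are given for some of them. These are the chemokine genes Pf4 and Ppbp, which are neighbors and had the highest median levels. Gp1ba and Gp5 of the Ib-IX-V complex follow, and Gp6, the gene that differed most between late and early ND. The sequences are those of RefSeq on the build GRCm38.p6, read 5′ to 3′ along the strand of each gene. Capitals mark GATA words (AGATAA or AGATAG, and TGATAA or TGATAG) and ETS words (AGGAAG or CGGAAG) on either strand.
Pf4 (chr5:90772185-90772434, plus strand): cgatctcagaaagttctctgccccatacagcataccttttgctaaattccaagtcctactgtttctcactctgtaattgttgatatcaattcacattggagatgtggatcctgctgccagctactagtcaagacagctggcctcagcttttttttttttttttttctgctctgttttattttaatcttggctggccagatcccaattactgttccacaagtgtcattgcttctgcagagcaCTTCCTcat
Ppbp (chr5:90768268-90768517, plus strand): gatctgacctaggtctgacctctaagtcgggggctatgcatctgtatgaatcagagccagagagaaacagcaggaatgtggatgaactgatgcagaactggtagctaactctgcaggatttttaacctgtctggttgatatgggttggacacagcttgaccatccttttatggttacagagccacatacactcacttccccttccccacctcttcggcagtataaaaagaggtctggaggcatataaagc
Gp1ba (chr11:70638872-70639121, plus strand): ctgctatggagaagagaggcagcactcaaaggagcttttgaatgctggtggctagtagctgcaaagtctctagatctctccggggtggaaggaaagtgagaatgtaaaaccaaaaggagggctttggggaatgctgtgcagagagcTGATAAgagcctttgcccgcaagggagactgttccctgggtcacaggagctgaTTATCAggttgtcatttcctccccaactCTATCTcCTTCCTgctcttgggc
Gp5 (chr16:30310782-30311031, minus strand): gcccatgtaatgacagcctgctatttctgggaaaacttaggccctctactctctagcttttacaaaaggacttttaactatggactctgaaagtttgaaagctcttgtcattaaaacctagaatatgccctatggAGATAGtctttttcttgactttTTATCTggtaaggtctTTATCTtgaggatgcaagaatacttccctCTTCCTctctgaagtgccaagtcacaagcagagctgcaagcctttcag
Gp6 (chr7:4397745-4397994, minus strand): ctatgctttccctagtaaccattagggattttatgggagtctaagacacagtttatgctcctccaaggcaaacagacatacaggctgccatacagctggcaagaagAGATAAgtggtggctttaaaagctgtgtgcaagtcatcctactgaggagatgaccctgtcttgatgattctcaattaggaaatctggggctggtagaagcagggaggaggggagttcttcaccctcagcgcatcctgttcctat
Promoter entries were found for 9 of the 10 genes, all but Itgb3. A GATA word occurred in 4 of these 9 and in 26.5% of the 32851 promoters of the table, and an ETS word in 6 of 9 against 39.2%. Gp1ba and Gp5 each held 3 GATA words and 1 ETS word, Gp1bb held 1 of each, Gp6 held 1 GATA word and no ETS word, and Pf4 held an ETS word that ends 4 bases before the start. No word of either kind was present in these windows of Ppbp and Treml1, which says only that these letters are not there.

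The libraries held between 5527108 and 13924361 gene counts, more in the late ND group (7849602 to 13924361) than in the early ND group (5527108 to 7182346) without overlap. Counts were scaled to counts-per-million (CPM) with TMM factors, which set the bulk of expressed genes equal between libraries. This choice matters for the platelet genes, because the hemoglobin genes took 22.0% ± 6.73 (SD, n = 5) of gene counts in late ND libraries against 48.5% ± 10.4 in early ND and 48.4% ± 12.7 in untreated libraries. Libraries untreated 2, late 2 and late 3 were poor in 18S ribosomal sequence, with at most 575 CPM of Rn18s-rs5 against at least 9547 CPM in each of the other 12. Libraries untreated 5, early 3 and late 5 held the most RNA of the sebaceous gland enzyme Scd3, at 323 CPM or more, against at most 145 CPM elsewhere. None of 10 endothelial genes exceeded 4.11 CPM in any library, which bears on RNA of the vessel wall only. A list of 10 sebaceous gland and skin genes summed to between 104 and 1109 CPM over the libraries.

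Summed over the 10 genes, platelet RNA came to a median of 2687 CPM in untreated mice (1788 to 2917), 2629 CPM in early ND mice (1956 to 3749) and 1922 CPM in late ND mice (1534 to 2233). The late ND libraries lay at the lower end, but they overlapped both other groups, since untreated 5 at 1788 CPM and early 2 at 1956 CPM fell among them. As a percentage of all gene counts the late ND group was instead the highest by its mean, with 0.300% ± 0.0573 (SD, n = 5) in late ND libraries, 0.222% ± 0.0755 in early ND and 0.213% ± 0.104 in untreated libraries. The log2 CPM averaged over the 9 genes accordingly differed between the late and early ND group means by -0.45 with TMM scaling and 0.46 with library totals. With library totals the median of all 13315 genes tested was itself 0.86 higher in late ND, above the value of the platelet genes. Setting the platelet genes against that median largely repeats the TMM comparison, so it is not a second result. The hemoglobin share was at most 29.3% in late ND libraries and at least 31.6% in the other 10, so that it cannot be told apart from the group; with it as a covariate 0 of all genes were called between late and early ND (1072 at an unadjusted p under 0.05, none of them a platelet gene of the 9). The log2 fold changes of the 9 in that fit were -0.71 to -0.15, with -0.71 for Gp6, against -0.69 to -0.29 without the covariate. Erythroid genes, as a list of 12, summed to between 90003 and 241381 CPM in late ND and between 337414 and 1315426 CPM in early ND libraries (TMM-scaled values do not have a fixed sum). Of 10 tested, 7 were called lower, against 2.48% of all genes. The monocyte genes summed to between 746 and 1100 CPM in late ND against 404 to 920 CPM in early ND, with 3 of 9 called higher, against 2.50% of all genes. The 10 neutrophil genes summed to between 5701 and 14899 CPM in late ND, 2450 and 7385 CPM in early ND and 4533 and 11501 CPM in untreated libraries. Their median log2 fold change was 1.06 between late and early ND and -0.85 between early ND and untreated, with 0 of 10 called by edgeR in either. At an unadjusted p under 0.05, 7 were higher in the first, against 14.4% of all genes. In the second 5 were lower, against 2.33% of all genes.

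**Figure D1:**
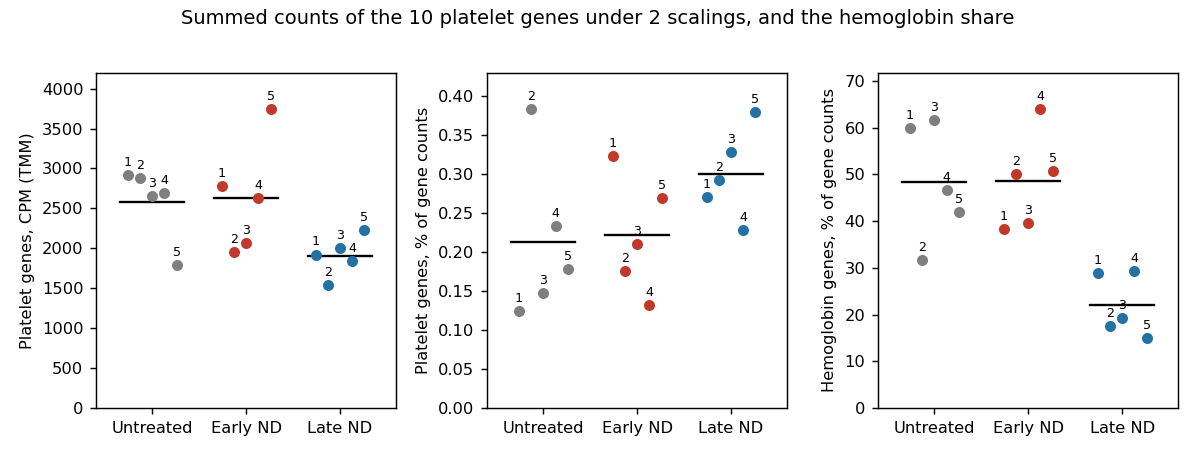
Each point is 1 library, numbered by replicate, and each bar is the mean of 5. The summed platelet genes are shown as TMM-scaled CPM (left) and as a percentage of gene counts (middle), with the hemoglobin percentage on the right. Late ND lies lowest on the left, at a mean of 1906 CPM, and highest in the middle, at 0.300%, while its hemoglobin percentage is at most 29.3%.

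Between late and early ND, all 9 platelet genes with counts had lower values in late ND on the TMM scale, and higher ones with library totals. Gp6 passed the test, and the other 8 did not. Thus 1 of 9 was called lower by edgeR's quasi-likelihood test at an adjusted p under 0.05, where 2.48% of all 13315 genes tested were called lower and 2.50% higher. At an unadjusted p under 0.05, 4 of the 9 were lower (Gp6, Gp5, Itga2b and Gp1ba), against 9.33% of all genes. The median log2 fold change of the 9 was -0.45, from -0.69 to -0.29, whereas the median over all genes was 0.014 and 48.2% of genes lay below 0. The 9 genes come from the same cells in the same 10 libraries, so they are not 9 independent observations.

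Gp6 encodes glycoprotein VI, the collagen receptor of platelets, and lies on chromosome 7 of GRCm39 from 4366964 to 4400743 on the minus strand. Its level was 88.3, 64.6, 83.5, 79.4 and 127 CPM in early ND replicates 1 to 5. In late ND replicates 1 to 5 it was 60.1, 48.4, 45.6, 54.6 and 61.6 CPM. Every late ND library therefore lay below every early ND library, a separation that among all genes tested was found for 2.93% in this direction. Gp6 fell by 0.69 on the log2 scale (standard error 0.17, 95% interval -1.07 to -0.32, adjusted p = 0.0420, edgeR), but with library totals its log2 fold change was 0.17 with an adjusted p of 0.553. The call was lost in 8 of the 10 fits that each left out 1 library, all except those without early 2 and early 3, with adjusted p from 0.0309 to 0.0874 over the 10, while the log2 fold change stayed between -0.79 and -0.51. It was also lost among the libraries rich in 18S sequence, without late 2 and late 3, at -0.59 with an adjusted p of 0.115 (edgeR). That fit called 4 of 13440 genes in all, and 0 lower. DESeq2's Wald test on all 10 libraries also called Gp6, at -0.72 with an adjusted p of 0.00389, where 5.03% of all genes were called lower. In untreated mice Gp6 stood at 77.2, 86.3, 78.6, 87.6 and 48.7 CPM, 4 of them above every late ND library and untreated 5 among them.

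**Figure D2:**
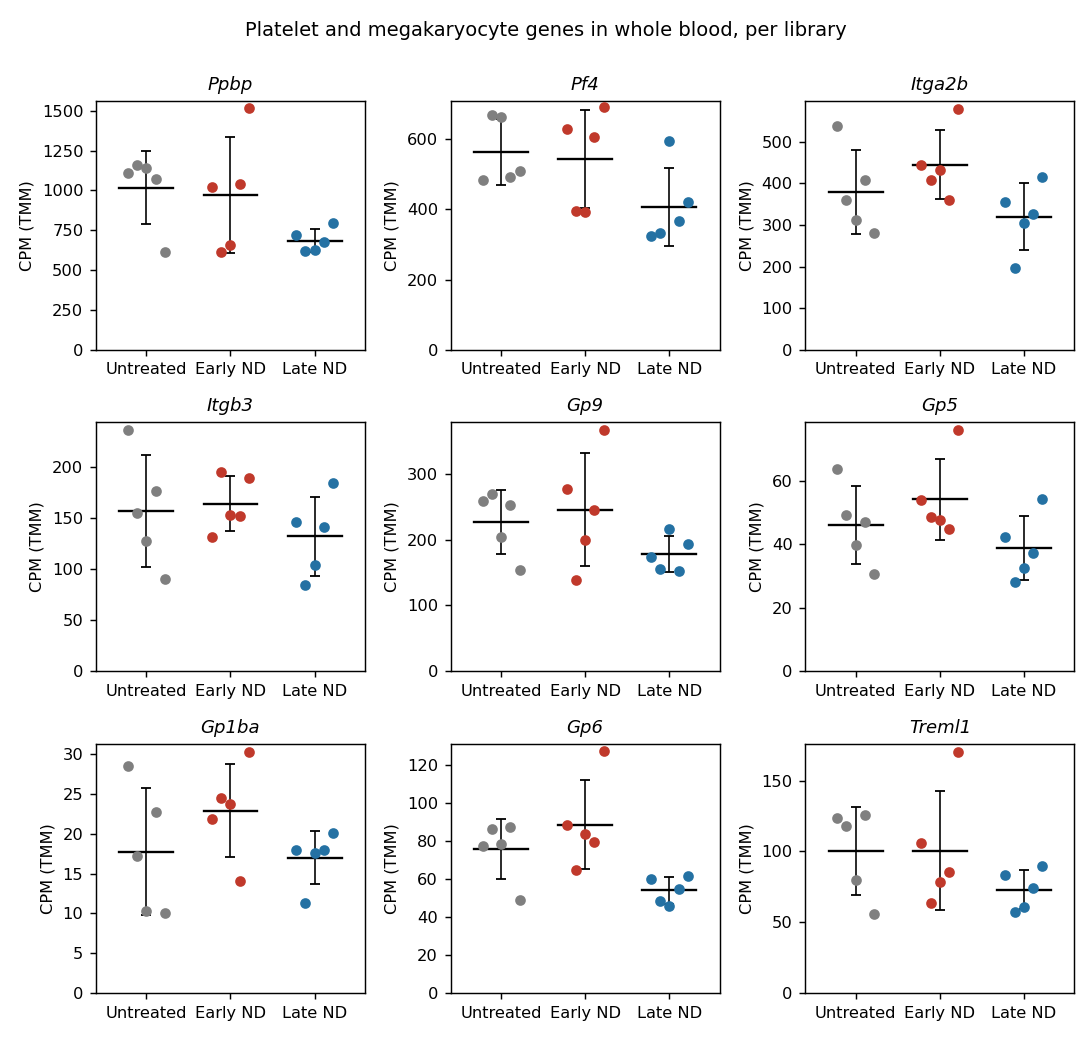
Level of 9 platelet genes in every library as TMM-scaled CPM (linear axes from 0), with points in the order of replicates 1 to 5, bars at the mean and error bars of 1 SD (n = 5). Gp6 is the panel in which late ND (45.6 to 61.6 CPM) and early ND (64.6 to 127 CPM) do not overlap, and early 5 is the highest early ND point in 8 of the 9 panels.

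The alpha granule chemokine genes had the highest median CPM over all libraries, at 793 for Ppbp and 493 for Pf4. Itga2b, with a median of 360 CPM, exceeded Pf4 in some libraries, such as untreated 1 (538 against 483 CPM). Ppbp, which encodes the precursor of neutrophil-activating peptide 2, had 1109, 1157, 1141, 1073 and 612 CPM in untreated replicates 1 to 5. It had 1023, 617, 658, 1043 and 1519 CPM in early ND and 719, 621, 625, 674 and 793 CPM in late ND replicates. The late ND values filled a narrow band, and they lay below 4 of 5 untreated libraries and above untreated 5, while the early ND values were spread on both sides of them. Its log2 fold change was -0.48 between late and early ND (standard error 0.24, adjusted p = 0.250, edgeR) and -0.57 between late ND and untreated (standard error 0.19, adjusted p = 0.146). Both became positive with library totals, at 0.43 and 0.37, without passing the test.

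Pf4 encodes platelet factor 4, a chemokine that binds heparin, and lies just downstream of Ppbp on chromosome 5. It had 483, 670, 662, 493 and 508 CPM in untreated, 629, 396, 393, 606 and 690 CPM in early ND and 323, 332, 593, 365 and 421 CPM in late ND replicates 1 to 5. Late 3 stood above the other late ND libraries, which otherwise lay below every untreated value. The log2 fold change was -0.39 against early ND (standard error 0.22, adjusted p = 0.315, edgeR) and -0.46 against untreated (standard error 0.19, adjusted p = 0.234), and neither passed. The ratio of Pf4 to Ppbp counts was between 0.435 and 0.642 in 13 of 15 libraries, but 0.830 in untreated 5 and 0.950 in late 3.

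Itga2b and Itgb3 encode the subunits of the fibrinogen receptor αIIbβ3, the first restricted largely to megakaryocytes and platelets and the second shared with other integrins. Itga2b had 538, 359, 311, 409 and 280 CPM in untreated, 445, 408, 432, 360 and 579 CPM in early ND and 356, 197, 304, 327 and 415 CPM in late ND replicates 1 to 5. Late 2 was the lowest of the 15, and 4 of 5 late ND libraries lay below every early ND library. The log2 fold change between late and early ND was -0.46 (standard error 0.20, interval -0.89 to -0.025, adjusted p = 0.185, edgeR), and between late ND and untreated it was -0.25 (standard error 0.22, adjusted p = 0.626). Itgb3 ranged from 90.0 to 236 CPM in untreated, from 132 to 195 CPM in early ND and from 84.7 to 184 CPM in late ND libraries, so that all 3 groups overlapped. Its difference between late and early ND was the smallest of the 9, at -0.29 (standard error 0.20, adjusted p = 0.400). The count ratio of Itga2b to Itgb3 kept to between 2.10 and 3.38 over the 15 libraries.

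Of the Ib-IX-V complex, Gp9 (glycoprotein IX) was the most abundant, at 227 ± 48.4 CPM in untreated, 245 ± 85.5 CPM in early ND and 178 ± 27.1 CPM in late ND libraries (SD, n = 5). Its log2 fold change between late and early ND was -0.44 (standard error 0.23, adjusted p = 0.269, edgeR). Gp5 (glycoprotein V) came to 46.1 ± 12.3, 54.2 ± 12.7 and 39.0 ± 10.1 CPM in the same order, with 4 of 5 late ND libraries below every early ND library and late 5 at 54.3 CPM among them. The difference for Gp5 was -0.46 (standard error 0.19, unadjusted p = 0.0333, adjusted p = 0.168, edgeR). Leaving out untreated 5, early 3 and late 5, the libraries rich in sebaceous gland RNA, made it -0.68 with an adjusted p of 0.0439, so that Gp5 and Gp6 were then both called lower in late ND, in a fit that called 3.71% of all genes lower against 2.48% with all 10 libraries.

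Gp1ba, the chain that binds von Willebrand factor, was the lowest of the 9, at 17.8 ± 8.02 CPM in untreated, 22.9 ± 5.87 in early ND and 17.0 ± 3.34 in late ND libraries (SD, n = 5), on 36 to 401 counts per library. Its difference between late and early ND was -0.43 (standard error 0.19, unadjusted p = 0.0440, adjusted p = 0.195, edgeR), while between late ND and untreated it was -0.048 (standard error 0.27, adjusted p = 0.965). With library totals the second of these became 0.90 with an adjusted p of 0.0357 (edgeR), the only call of any of the 9 as higher under any setting tried. In that fit 55.2% of all genes were called higher, and the median log2 fold change over all genes was 0.91.

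Gp1bb, the β chain of glycoprotein Ib, had 0 counts in all 15 libraries. In the annotation, 100% of its exon bases (chromosome 16 of GRCm39, 18439067 to 18441153, minus strand) also belong to the genes Septin5 and Gm49601 on the same strand, and a read pair that falls on several genes is given to none of them in the usual settings of the counting tool (the setting used is not given in the sources used here, and 156611 to 568083 pairs per library were left as ambiguous). Septin5 itself had 0 to 14 counts and Gm49601 0 to 12. The counts thus give no level for Gp1bb, and it is the only one of the 10 whose exons lie under another gene. A count of 0 would otherwise allow up to between 0.120 and 1.21 CPM, depending on the library (3 counts).

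Treml1 encodes TLT-1, a receptor of the alpha granule membrane that reaches the surface of activated platelets. Its level was 101 ± 31.2 CPM in untreated, 101 ± 41.9 CPM in early ND and 72.9 ± 13.9 CPM in late ND libraries (SD, n = 5). Early 5 at 171 CPM stood far above the other early ND libraries, which ranged from 63.3 to 106 CPM. Neither difference from late ND passed the test (-0.45, standard error 0.24, adjusted p = 0.289 against early ND, and -0.47, standard error 0.22, adjusted p = 0.304 against untreated, edgeR).

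Late ND shares its libraries between the comparison with early ND and that with untreated mice, so the following values are not a second, independent result. Between late ND and untreated, 9 of 9 genes had lower TMM-scaled values (all 9 were higher with library totals), where 49.6% of 13547 genes lay below 0. None of the 9 was called by edgeR, where 2.01% of all genes were called lower and 0.989% higher. At an unadjusted p under 0.05, 3 genes were lower (Gp6, Ppbp and Pf4) against 8.28% of all genes lower and 8.69% higher. DESeq2's Wald test called 1, Ppbp, at -0.58 with an adjusted p of 0.0181, where it called 3.97% of all genes lower and 2.01% higher. The median of the 9 was -0.35, against 0.0023 over all genes. Gp6 had the smallest adjusted p of the 9, at 0.136, for a log2 fold change of -0.48 (standard error 0.16, edgeR). Library untreated 5 carried weight here, since without it Ppbp (-0.70, adjusted p = 0.0246) and Gp6 (-0.61, adjusted p = 0.0129) were both called lower, in a fit that called 2.91% of all genes lower. Without untreated 5 and late 5, the libraries of these groups rich in sebaceous gland RNA, 3 were called lower (Ppbp, Gp6 and Treml1), where 2.62% of all genes were.

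Between early ND and untreated mice, 6 of the 9 genes had higher and 3 lower values on the TMM scale (Treml1 changed sign with library totals), where 50.4% of all genes lay below 0, with log2 fold changes from -0.070 for Ppbp to 0.40 for Gp1ba. None was called by edgeR or DESeq2 and 0 had an unadjusted p under 0.05, in a comparison where 0% of 12151 genes were called and 2.11% were higher and 2.33% lower at an unadjusted p under 0.05. The 95% interval for Treml1, -0.61 to 0.61, and for Gp1ba, -0.21 to 1.01, show the size of difference that 5 mice per group left undecided.

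**Figure D3:**
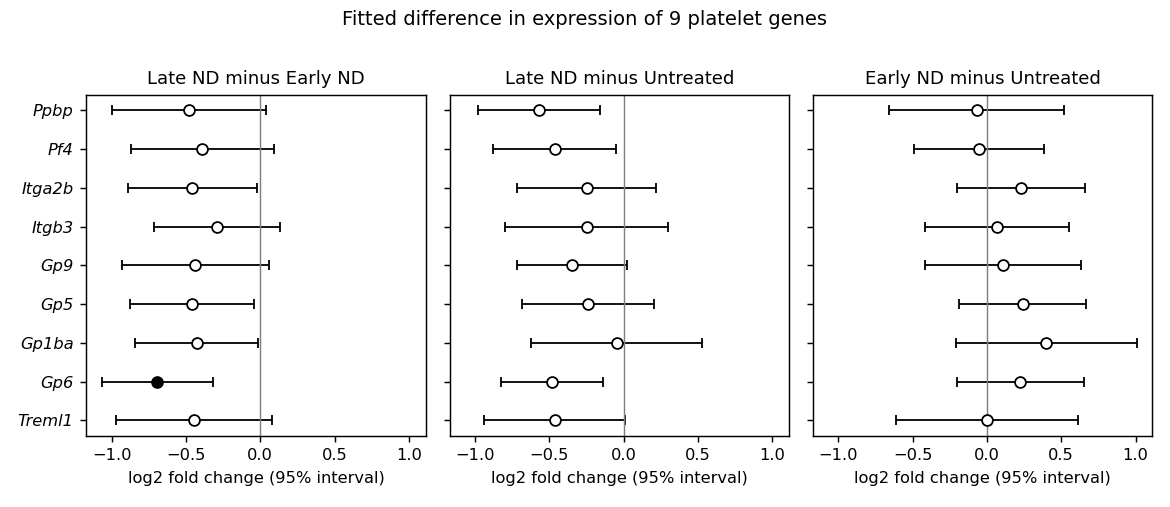
Log2 fold change of each platelet gene with its 95% interval in the edgeR fits of 5 against 5 libraries with TMM scaling; filled points have an adjusted p under 0.05. All 9 points lie below 0 in both comparisons of late ND (all 9 above 0 with library totals), Gp6 against early ND (-0.69) is the filled one, and the intervals of early ND against untreated all include 0.

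A share of a gene within the summed counts of the 10 does not depend on how a library is scaled, so it describes the proportions of the genes to each other. Ppbp took a median of 37.4% of these counts (31.3 to 43.0% over the 15 libraries), Pf4 20.3% (16.6 to 29.7%), Itga2b 15.7% (11.7 to 20.9%), Gp9 9.32% (7.10 to 10.8%) and Itgb3 5.76% (4.74 to 9.95%). Treml1 took 3.81%, Gp6 3.02%, Gp5 1.94% and Gp1ba 0.849%. Of 27 comparisons (9 genes in 3 pairs of groups), 0 passed a two-sided exact permutation test after Benjamini-Hochberg adjustment, and 2 had an unadjusted p under 0.05. These were both for Gp6, with 2.86% ± 0.359 in late ND against 3.39% ± 0.390 in early ND (SD, n = 5, exact permutation p = 0.0317, adjusted p = 0.536), and 2.92% ± 0.243 in untreated against the same early ND libraries (exact permutation p = 0.0397, adjusted p = 0.536). The smallest p that 5 against 5 libraries allow is 0.00794, and 5 of the 27 tests would have had to reach it for any to pass, so the absence of calls does not show that the proportions were kept.

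**Figure D4:**
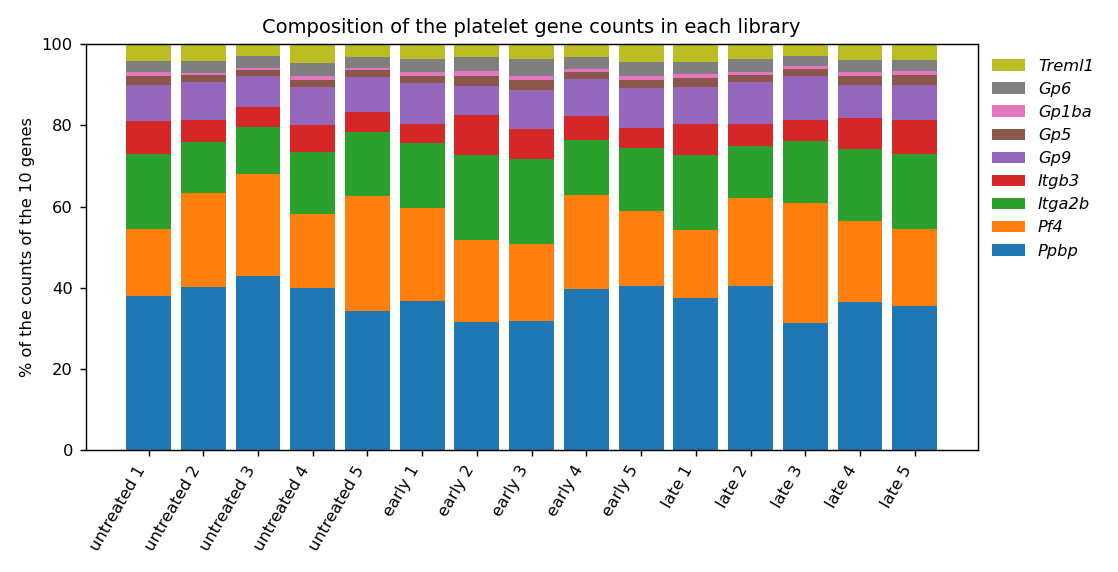
Stacked bars give the percentage of the summed counts of the 10 platelet genes that each gene took in each of the 15 libraries (Gp1bb took 0). Ppbp and Pf4 together fill the larger part of every bar, and Pf4 is widest in late 3, at 29.7%.

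Per kilobase of annotated exon, the order by median over the 15 libraries began with Ppbp (610 CPM per kb), Gp9 (229), Pf4 (200) and Treml1 (58.2). Itga2b (43.9), Itgb3 (22.9), Gp5 (21.1), Gp6 (13.1) and Gp1ba (6.61) followed. The annotated lengths of these genes ran from 888 bases for Gp9 to 8187 for Itga2b, with 2462 for Pf4. How much of each length the platelet RNA held was not tested, so this order depends on the annotation. Ppbp exceeded Gp9 in 15 of 15 libraries, by 1.97 to 3.84 times. Gp9 and Pf4 were in this order in 12 of 15 libraries and Itgb3 and Gp5 in 12 of 15, so these neighbors are not separated beyond the spread between mice. Each of the other neighboring pairs kept its order in at least 14 of 15 libraries. Within the Ib-IX-V complex the genes differed widely although their products assemble together, with 5.66 to 19.6 times as many counts for Gp9 as for Gp1ba.

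Beyond the group means, the platelet genes varied together from mouse to mouse. Over the 36 pairs of the 9 genes, the Pearson correlation of the deviations from the group mean (log2 CPM, 15 libraries) had a median of 0.66, from -0.16 to 0.94. Treml1 followed the mean of the other 8 most closely (r = 0.95) and Pf4 least (r = 0.25). Itga2b, Itgb3, Gp1ba and Gp5 correlated with each other at 0.81 to 0.93, and Ppbp, Gp9, Gp6 and Treml1 at 0.78 to 0.94. These sets were picked from the same correlations and are not separate, since values between them ran from 0.30 (Itgb3 with Gp9) to 0.88 (Gp5 with Treml1). Pf4 reached 0.67 with Gp9 and 0.58 with Ppbp and at most 0.31 with the other 6. These correlations are a description, since all points of a library share its depth and scaling.

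**Figure D5:**
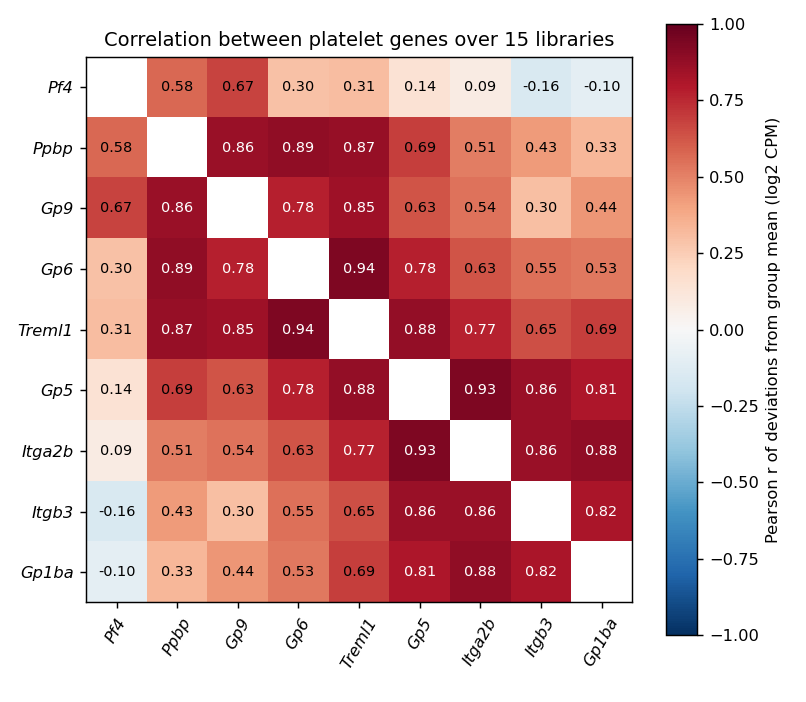
Pearson correlation between platelet genes over 15 libraries, on deviations from the group mean of log2 CPM. The highest value, 0.94 between Gp6 and Treml1, lies near the center, and warm colors at the lower right reach 0.93 between Itga2b and Gp5. The row of Pf4 is mostly pale, with -0.16 against Itgb3.

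Among 9445 other genes with at least 50 counts on average, the genes whose deviations were most like those of the mean of the 9 were Parvb (r = 0.96), Alox12 (0.95), Csrp1 (0.94), Slc6a4 (0.93), Clu (0.93), Fermt3 (0.93), Gm26586 (0.93), Kalrn (0.93), Myl9 (0.93) and P2rx1 (0.92), over 15 libraries. Several are known platelet genes, such as Slc6a4, the serotonin transporter, Fermt3 (kindlin-3), which activates integrins, Alox12, the platelet 12-lipoxygenase, and P2rx1, an ATP-gated channel. None of the 10 was called in any of the 3 comparisons (adjusted p of at least 0.105 between late and early ND, edgeR), and 10 of 10 had lower TMM-scaled values in late than in early ND, from -0.66 for Myl9 to -0.21 for Fermt3, with all 10 positive under library totals.

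A wider set of 80 genes of platelet function in 5 lists was read from the same fits, of which 77 passed the filter on low counts (all but Mmrn2, Jam3 and Thpo). Between late and early ND, 2 were called higher and 6 lower, 51 lay below 0 and the median was -0.28. The 8 called are 10.4% of the 77 tested, where 4.98% of all genes were called, and the number ranged from 2 (without early 4) to 12 (without early 3) when 1 library was left out. Between late ND and untreated 0 were called higher and 2 lower, where 0.989% of all genes were called higher and 2.01% lower (from 0 without untreated 3 to 7 without untreated 5). Between early ND and untreated 0 were called by edgeR or DESeq2. At an unadjusted p under 0.05, 1 was higher there, against 2.11% of all genes higher and 2.33% lower.

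In the list of agonist receptors and signalling, 3 of 27 genes were called lower in late than in early ND and the median was -0.39. Over all genes, against which the counts of this list and the next ones are to be read, 2.48% were called lower and 2.50% higher. Cd36, a scavenger and thrombospondin receptor also found on red cell precursors and monocytes, had 8.34 to 14.6 CPM in late ND against 22.4 to 83.2 CPM in early ND and 18.2 to 59.9 CPM in untreated libraries, with no overlap with either group (2.98% of all genes lay wholly below untreated). It fell by 2.04 on the log2 scale against early ND (standard error 0.34, adjusted p = 0.0126, edgeR) and by 1.74 against untreated (standard error 0.28, adjusted p = 0.0242), while with library totals the values were -1.06 (adjusted p = 0.00270) against early ND and -0.64 (adjusted p = 0.0984, not called) against untreated (edgeR). Itga2, the collagen-binding integrin subunit, fell by 0.91 against early ND (standard error 0.16, adjusted p = 0.0126, edgeR), from 28.9 ± 4.16 to 15.2 ± 3.26 CPM (SD, n = 5), but with library totals its value was -0.094 with an adjusted p of 0.753. P2ry12, the ADP receptor targeted by clopidogrel, fell by 0.81 (standard error 0.20, adjusted p = 0.0420, edgeR), although with library totals its value was 0.025. The 3 genes of this list with the highest levels, Cd9, Gng11 and Tln1, had values of -0.39, -0.41 and 0.41 and were not called.

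Of 14 alpha granule genes tested, 2 were called lower, 7 lay below 0 and the median was -0.016. Sparc, a matrix protein, had 0.801 to 3.41 CPM in late ND against 2.89 to 13.6 CPM in early ND libraries and fell by 1.85 on the log2 scale (standard error 0.46, adjusted p = 0.0420, edgeR), with a value of -1.05 under library totals. Mmrn1, which encodes multimerin 1, the carrier of platelet factor V, fell by 0.87 (standard error 0.23, adjusted p = 0.0493, edgeR), but its value was 0.0035 with library totals and its adjusted p was 0.0528 with DESeq2 size factors. Nrgn (-0.43), Srgn (0.21) and Clu (-0.60), the 3 most abundant of the list, were not called.

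Of 18 genes of platelet shape, shedding and granule formation, Nbeal2 was called higher and 0 were called lower, with a median of -0.39. Nbeal2, which is needed to form alpha granules, had 189 to 279 CPM in late ND against 106 to 173 CPM in early ND libraries and rose by 0.80 (standard error 0.17, adjusted p = 0.0239, edgeR), or by 1.60 with library totals. Flna (0.33), Ctla2a (-0.52) and Myh9 (0.20) led this list in level and were not called. None of the 5 eicosanoid enzymes was called (lowest adjusted p 0.114, for Alox12 at -0.50, edgeR), and the 3 most abundant were Alox5ap (0.67), Alox12 and Tbxas1 (-0.29). At an unadjusted p under 0.05, 1 of the 5 was higher and 1 lower, against 14.4% of all genes higher and 9.33% lower.

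Of 13 transcription factor and thrombopoietin receptor genes, 1 was called higher and 1 lower, with a median of -0.19. Lmo2, a partner of GATA1 that is also expressed in red cell precursors, had 64.8 ± 9.07 CPM in late ND against 146 ± 67.1 CPM in early ND and 138 ± 54.3 CPM in untreated libraries (SD, n = 5). It fell by 1.13 against early ND (standard error 0.26, adjusted p = 0.0317, edgeR) and by 1.07 against untreated (standard error 0.24, adjusted p = 0.0383), though with library totals these values were -0.12 and 0.026. Etv6, an ETS family repressor, rose by 0.65 against early ND (standard error 0.13, adjusted p = 0.0225, edgeR), from 19.4 ± 2.24 to 29.9 ± 4.91 CPM (SD, n = 5), or by 1.48 with library totals. Nfe2 and Mef2c, which follow Lmo2 in level, had values of -0.0086 and -0.48 and were not called. Several of the 8 called genes are expressed in other blood cells as well, and the part in these results of the erythroid, monocyte and neutrophil genes, whose levels differed between the groups, was not tested. Whether counting used strand is not given in the sources used here, and 9.85% of the exon bases of Lmo2, 9.17% of P2ry12 and 20.4% of Fermt3 lie opposite another gene.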

How the data were processed

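Whole blood RNA was sequenced as paired-end libraries, 1 per animal. The authors aligned the read pairs with STAR 2.7.9 to GRCm39 with default options, sorted them with SAMtools 1.7 and deposited raw gene counts from HTSeq 0.13.5, without normalization. The processing notes also name the build mm10, and the counting mode and strand setting are not given in the sources used here. Gene identifiers were paired with symbols, positions and exon lengths from GENCODE M39 (54749 of 55416 matched). Rows of unassigned pairs were left out of library sizes.

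For each pair of groups (5 libraries each), genes were filtered with filterByExpr, scaled by TMM and tested by quasi-likelihood in edgeR 4.0.16 (R 4.3.3). Adjusted p-values are Benjamini-Hochberg values over every gene tested, with a threshold of 0.05. Printed CPM use TMM factors over all 15 libraries. DESeq2 1.42.0 was an alternative, as were other scalings, filters, covariates and sets of libraries. For shares within the 10 genes, exact permutation tests (two-sided) ran over 252 splits. Likeness was the Pearson correlation of deviations from group means of log2 CPM (prior count 2) among genes that averaged 50 counts or more. Scripts were tested on simulated data. The 105 library pairs held no identical tables.

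All 10 genes are named. From the 5 wider lists, every gene called in any comparison (up to 10 a list, by smallest adjusted p) and the 3 of each list with the highest mean CPM are named, and the 10 genes of greatest likeness. The genes, lists and libraries to leave out were chosen with earlier results of these data known. Leaving out the libraries rich in sebaceous gland RNA was added after the data were seen. Wilson intervals and limits on a count of 0 cover counting error only. The edgeR intervals of fold changes also include the spread between libraries.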

Additional observations from a re-analysis of the deposited data

Results flagged for a closer look

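Of 60 sets of 5 values (the CPM, the percentage of the 10-gene counts and the main ratios, in each group), 5 held a library far from the other 4 by Dixon's test at the 95% level, which chance does in about 1 of 20 sets. Untreated 5 was far below its group for Ppbp (612 CPM against a group median of 1109), for Gp6 (48.7 against 78.6 CPM) and for the sum of the 10 genes (1788 against 2687 CPM). This library also held the most Scd3 RNA of the 15, at 624 CPM, and the part of that in its low platelet values was not tested. Early 2 was low for the percentage of Gp9 (7.10%, 95% Wilson interval 6.65 to 7.58%, against a group median of 9.62%). Late 3 was high for the ratio of Pf4 to Ppbp counts (0.950 against a group median of 0.535), and Pf4 took 29.7% of its platelet gene counts (95% Wilson interval 29.3 to 30.1%).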

How the results depend on the processing

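Of 567 values of the 9 detected genes under alternative settings, 495 kept their direction and their side of the threshold, 54 changed sign, 10 lost the call and 8 gained one. Between late and early ND, where edgeR called 1 of the 9 genes, 8 of the wider lists and 663 genes in all, DESeq2 called 18 of the wider lists and 1439 genes. The scaling mattered most. With library totals 0 of the 9, 37 of the wider lists and 9060 genes (8923 higher) were called. The fitted values became 0.50 for Pf4, 0.43 for Ppbp, 0.37 for Itga2b, 0.56 for Itgb3, 0.39 for Gp1ba, 0.40 for Gp5, 0.17 for Gp6, 0.45 for Gp9 and 0.42 for Treml1. The difference between group means of log2 CPM averaged over the 9 genes, which is not the mean of these fitted values, was 0.46. With totals that leave out hemoglobin and 18S the counts were 18 of the wider lists and 2031 genes, and with no filter on low counts 1282 genes. With the hemoglobin share as a covariate 0 of the 9, 0 of the wider lists and 0 genes were called. With the libraries rich in 18S alone the counts were 0, 0 and 4, and without the libraries rich in sebaceous gland RNA they were 2, 13 and 1214. Leaving out 1 library at a time gave 0 to 1 of the 9, 2 to 12 of the wider lists and 145 (without late 3) to 1610 genes (without early 3). Between late ND and untreated, where 0 of the 9, 2 of the wider lists and 406 genes were called, DESeq2 called 1, 8 and 810. Library totals called 1, 29 and 7574, with fitted values of 0.43 for Pf4, 0.37 for Ppbp, 0.72 for Itga2b, 0.73 for Itgb3, 0.90 for Gp1ba, 0.71 for Gp5, 0.43 for Gp6, 0.57 for Gp9 and 0.45 for Treml1. The difference between group means of log2 CPM averaged over the 9 genes, again not the mean of the fitted values, was 0.69. Totals without hemoglobin and 18S called 9 of the wider lists and 949 genes, with 0.0030 for Itga2b, 0.0066 for Itgb3, 0.19 for Gp1ba and 0.0057 for Gp5. A minimum of 10 counts in every library left 4 of the wider lists. The hemoglobin covariate left 0 of the wider lists and 0 genes, with 0.034 for Itgb3 and 0.15 for Gp1ba, and the libraries rich in 18S also left 0 and 0, with 0.076 for Gp1ba. Without the sebaceous libraries 3 of the 9 and 8 of the wider lists were called. Leaving out 1 library gave 0 to 2 of the 9, 0 to 7 of the wider lists and 0 (without untreated 3) to 593 genes (without untreated 5), and Gp1ba lay between -0.20 and 0.15. Between early ND and untreated, library totals called 3 genes against 0. Treml1 was 0.022 with library totals, 0.027 with totals without hemoglobin and 18S, 0.0072 with the minimum of 10 counts, 0.0016 in 1 fit over 15 libraries, 2.483e-05 with the hemoglobin covariate and 0.067 in the libraries rich in 18S. Pf4 was 0.015 in the libraries rich in 18S and 0.0011 without the sebaceous libraries, where Itgb3 was -0.060. Leaving out 1 library gave ranges of -0.16 to 0.036 for Pf4, -0.29 to 0.051 for Ppbp, -0.081 to 0.25 for Itgb3, -0.087 to 0.25 for Gp9 and -0.28 to 0.12 for Treml1, and 0 genes were called in each of these 10 fits. Shares within the 10 genes gave 0 calls in each of 15 repeats without 1 library, where the test could hardly give a call, so this says nothing about stability. The replicate numbers were not taken to pair the samples, since in no comparison did all 5 same-numbered pairs correlate above 0.1. Same-numbered libraries correlated in their deviations from -0.17 to 0.46 between late and early ND, from 0.031 to 0.58 between late ND and untreated and from -0.29 to 0.076 between early ND and untreated, with 1, 4 and 0 of 5 pairs above 0.1 and 1, 3 and 0 of 5 closest to their own number, which for late ND and untreated is a hint of pairing from the data, not from the design. Of those 3 late ND and untreated pairs, number 2 joins libraries that are both poor in 18S (r = 0.25). Number 5 joins libraries that are both rich in sebaceous gland RNA (r = 0.58). The part of these shared traits in the correlations was not tested. With a replicate block 2 of the 9 were called lower between late and early ND, where 2.29% of all genes were called lower. The block gave 5 calls in the wider lists between late ND and untreated, where 2.78% of all genes were called lower and 1.7% higher. The cause of these changes was not tested, other than that fits with fewer libraries have less information.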
